A study of Homo sapiens with 9 samples.

Results

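YAP1 and WWTR1 (which encodes TAZ), the DNA-binding partner TEAD1 and 7 genes tied to them, CCN1, CCN2, ANKRD1, AXL, AMOTL2, LATS2 and AJUBA, were followed in RNA-seq counts of HaCaT cells. These 10 genes came from a list of YAP pathway and target genes, and each was found by its Ensembl ID and symbol among the 78899 gene IDs of every count table. HaCaT is an established, spontaneously immortalized human keratinocyte line. The series holds 3 libraries of a subpopulation labelled BD, 3 of a subpopulation labelled NBD, both obtained by fluorescence-activated sorting, and 3 of the cell line, labelled control, with no drug or genetic change named for any of them. The labels spell out neither BD nor NBD and name no sorting marker. The stated interest of the study is in transcriptional differences of cell states associated with progenitors.

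In the Hippo pathway the kinases STK3 and STK4 (MST2 and MST1) with their adaptor SAV1 activate LATS1 and LATS2, which phosphorylate YAP and TAZ and hold them in the cytoplasm. Unphosphorylated YAP and TAZ enter the nucleus, bind TEAD proteins and switch on genes such as CCN1, CCN2 and ANKRD1. In the epidermis YAP is known for its activity in basal, proliferating keratinocytes. The pathway acts mainly through the phosphorylation and location of YAP and TAZ proteins, which RNA counts do not measure.

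TEAD proteins recognize a short core sequence, and the promoter windows of CCN2, ANKRD1 and YAP1 are shown because CCN2 and ANKRD1 varied most of all listed genes between libraries, while YAP1 varied least. The windows are RefSeq's, on GRCh38.p14, and run 5′ to 3′ on the strand of the gene. Capitals mark the hexamer GGAATG, searched on both strands (as GGAATG and CATTCC). CCN2 is on the minus strand at chr6:131951374-131951622, ANKRD1 on the minus strand at chr10:90921277-90921337 and YAP1 on the plus strand at chr11:102110197-102110446. Only bases before both the RefSeq start and the GENCODE 29 gene are printed, which leaves 61 bases for ANKRD1.
CCN2: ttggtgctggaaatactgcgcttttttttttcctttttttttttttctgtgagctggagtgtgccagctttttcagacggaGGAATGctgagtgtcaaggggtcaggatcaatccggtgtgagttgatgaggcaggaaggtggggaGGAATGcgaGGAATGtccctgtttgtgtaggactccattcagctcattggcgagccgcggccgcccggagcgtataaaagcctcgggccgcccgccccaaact
ANKRD1: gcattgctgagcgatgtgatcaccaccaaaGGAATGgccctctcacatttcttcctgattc
YAP1: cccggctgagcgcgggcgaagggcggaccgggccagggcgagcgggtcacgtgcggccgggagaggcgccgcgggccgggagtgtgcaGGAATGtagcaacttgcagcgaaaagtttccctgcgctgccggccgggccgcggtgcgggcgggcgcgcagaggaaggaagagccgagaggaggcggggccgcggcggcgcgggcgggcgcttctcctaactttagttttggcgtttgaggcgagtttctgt

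In CCN2 the hexamer began 169, 104 and 95 bases before the RefSeq start. In ANKRD1 it began 220 and 128 bases before the start, the second within the first exon of the longer GENCODE 29 transcript and so not printed. YAP1 held 1 match, 162 bases before the start. A window runs from 250 bases before to 50 bases after a start, and RefSeq gave 12 windows for 8 of the listed genes, with CCN1 and TEAD1 not among them. A match was found in 7 of the 12 windows and for 7 of the 8 genes, WWTR1 being without one in its windows. AMOTL2 and AJUBA had a match 69 and 59 bases before 1 of their starts, AXL 212 bases before its second start, and LATS2 at base 10 after its start. Among all 35116 windows of this length, 14.0% held at least 1 match, 1.37% at least 2 and 0.128% at least 3. These shares are per window. No share per gene was computed, and a gene with more windows has more places for a match. A match is a stretch of letters and not a measured binding site.

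**Figure D1:**
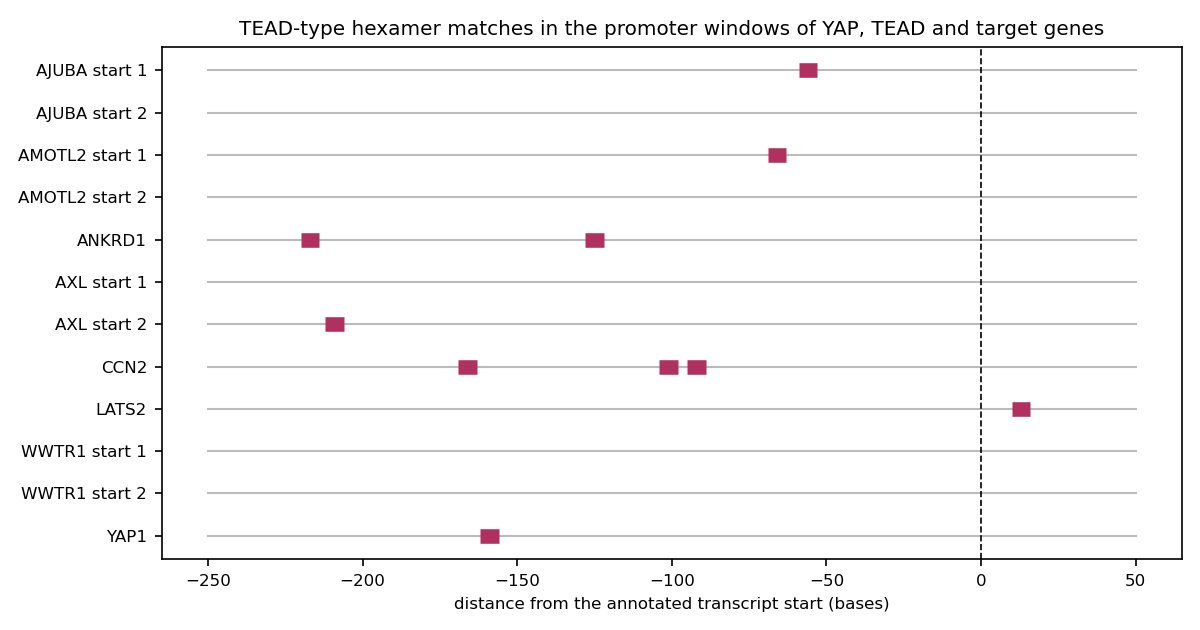
Position of the hexamer GGAATG, on either strand, in the 12 promoter windows of 8 listed genes. The x axis is the distance in bases from the annotated transcript start (dashed line), grey lines are the windows, and blocks are matches; CCN2 held 3 and ANKRD1 2.

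Total counts ranged from 17128797 to 29512856 per library, and all 10 genes passed the filter on low counts, which kept 16921 genes. The labels do not state that replicates are independent cultures, so the tests measure the spread between these libraries, which may be technical. The controls were not alike. Across genes, log2 CPM of control replicates 1 and 2 correlated at r = 0.988 with each other and at 0.918 and 0.922 with control replicate 3, which correlated at 0.969 to 0.987 with the 6 sorted libraries. The adducin gene ADD2 set the same libraries apart, with 61.2 CPM in control replicate 1, 59.0 CPM in control replicate 2, 1.61 CPM (39 counts) in NBD replicate 2 and no count elsewhere. Mitochondrial rRNA took 17.3% to 22.3% of counts in BD, 26.8% to 28.9% in NBD, and 12.3%, 11.9% and 20.7% in control replicates 1, 2 and 3. All 8 keratinocyte markers exceeded 1 CPM in every library. Their summed levels were 2437 to 3294 CPM in BD, 2036 to 2953 in NBD and 2773 to 3667 in control. In control replicates 1 and 2 KRT5 stood at 1012 and 1241 CPM, against 323 to 720 elsewhere. DSP stood there at 895 and 840 CPM (245 to 542 elsewhere) and CDH1 at 261 and 259 (148 to 245). KRT17 was lower there, at 180 and 238 CPM, against 354 to 957 elsewhere. KRT14, TP63, SFN and PERP did not set both of these controls apart. Of 8 fibroblast markers 1, FBLN1, exceeded 1 CPM in every library. The fibroblast sum was 5.97 to 10.2 CPM in BD, 4.37 to 12.0 in NBD and 8.36 to 15.4 in control, with COL1A2, DCN and PDGFRA at or near 0. FBLN1 reached 13.8 and 14.1 CPM in control replicates 1 and 2 and 7.82 CPM in NBD replicate 2, against 1.48 to 5.0 CPM elsewhere, while COL1A1 was at 0.255 and 0.729 CPM in those controls and at 1.22 to 3.76 CPM elsewhere. Melanocyte markers summed to at most 1.85 CPM. The endothelial list summed to 11.9 to 18.9, 6.74 to 16.3 and 1.85 to 16.8 CPM and the leukocyte list to 14.0 to 29.7, 10.2 to 25.8 and 0 to 32.2 CPM in BD, NBD and control, nearly all of it CDH5 and CD74, while PECAM1, KDR, PTPRC and CD3E were at or near 0. CDH5 stood at 1.07 and 0.785 CPM and CD74 at 0.0511 and 0 CPM in control replicates 1 and 2, against at least 5.92 and 10.1 CPM in each other library. With both mitochondrial rRNA genes removed, none of the 10 listed genes was called in any comparison, and against control WWTR1 was at -1.13 in BD and -1.02 in NBD (log2 fold change). The part of ADD2 and of the cell type markers in the results below was not tested.

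None of the 10 genes was called between BD and NBD, or between either subpopulation and the 3 controls, by edgeR's quasi-likelihood test at a Benjamini-Hochberg adjusted p under 0.05. The same fit called 0.0177% of all genes for BD against NBD and 0% for both comparisons with control. An unadjusted p under 0.05 was reached by 1 of the 10 genes for BD against NBD (5.86% of all genes), by 4 for BD against control (13.8%) and by 1 for NBD against control (9.13%). DESeq2 called none of the 10 either, and 0.337%, 0.987% and 0.171% of all genes. On simulated counts the test recovered 83.3%, 81.8% and 81.8% of 4-fold changes and 14.9%, 13.4% and 5.97% of 2-fold changes in these comparisons. Those shares are not split by level. Changes were placed only in genes above a minimum average level, which CCN2 and ANKRD1 did not reach. Recovery for genes as scarce as these was therefore not tested, and the shares do not apply to them. The values below show a split among the controls for 6 of the 10 genes. A single NBD library was the highest of the sorted libraries for 7 of the 10. AXL and AMOTL2 also differed between replicates within BD and NBD. Bulk RNA cannot tell fewer cells of a type from less RNA per cell.

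**Figure D2:**
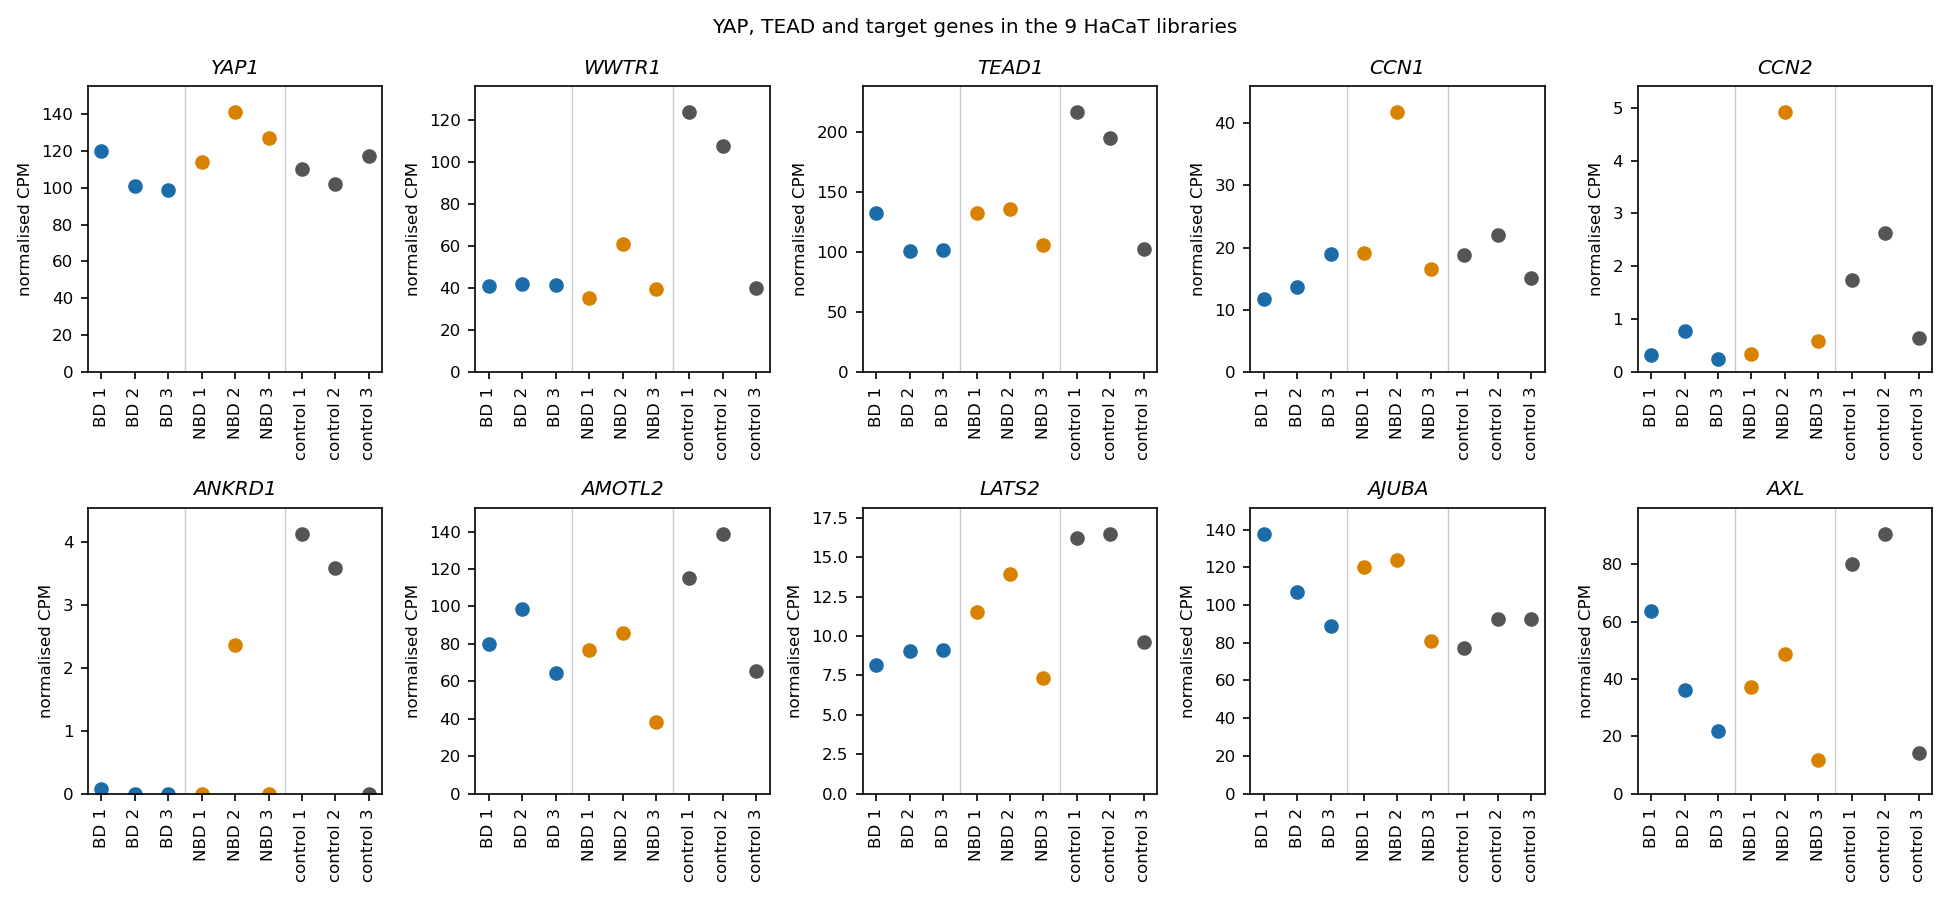
Normalised CPM (y axis, linear, from 0) of the 10 listed genes in each of the 9 libraries (x axis), with 1 point per library and colours for BD, NBD and control. Control replicates 1 and 2 lie above the other 7 libraries for WWTR1, TEAD1, ANKRD1, AMOTL2, LATS2 and AXL, and NBD replicate 2 is the highest library for CCN1 and CCN2.

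Levels below are normalised CPM, counts relative to the library total scaled by TMM, in replicates 1, 2 and 3. YAP1 (GRCh38 chromosome 11, 102110461 to 102233423), the coactivator itself, stood at 120, 101 and 98.8 CPM in BD, at 114, 141 and 127 CPM in NBD and at 110, 102 and 117 CPM in control. These levels lay close together, the highest 1.43 times the lowest, and all 3 groups overlapped. The log2 fold change of BD against NBD was -0.26 ± 0.16 (SE; adjusted p = 0.833), with a 95% interval of -0.62 to 0.10. Against control it was -0.04 ± 0.16 for BD (adjusted p = 0.915) and 0.22 ± 0.16 for NBD (adjusted p = 0.607).

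WWTR1 (chromosome 3, 149517235 to 149736714) encodes TAZ, the paralog of YAP. Its level was 40.8, 41.8 and 41.3 CPM in BD, 35.1, 60.9 and 39.6 CPM in NBD, and 124, 108 and 39.9 CPM in control. Control replicates 1 and 2 were higher than every other library, and control replicate 3 lay inside the sorted range. WWTR1 did not pass the test between BD and NBD, where its log2 fold change was -0.13 ± 0.36 (95% interval -0.93 to 0.67, adjusted p = 0.976). Nor did it pass against control, at -1.13 ± 0.36 in BD (adjusted p = 0.333) and -1.0 ± 0.36 in NBD (0.539). Reads of the antisense gene WWTR1-AS1, which shares exon bases with WWTR1, came to 122 in all libraries together, against 948 or more for WWTR1 in each library.

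TEAD1 (chromosome 11, 12674591 to 12944483), the transcription factor through which YAP and TAZ reach DNA, stood at 133, 101 and 102 CPM in BD and at 133, 136 and 106 CPM in NBD. In control it stood at 217, 195 and 103 CPM. As for WWTR1, replicates 1 and 2 of control were the highest and the third lay with the sorted libraries, so all groups overlapped. TEAD1 had a log2 fold change of -0.16 ± 0.26 for BD against NBD (adjusted p = 0.947), -0.62 ± 0.27 for BD against control (0.353) and -0.46 ± 0.27 for NBD against control (0.556).

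The ratios of WWTR1 and TEAD1 to YAP1 within a library showed the same split. Per kb of exon, counts of WWTR1 were 0.254, 0.311 and 0.312 of those of YAP1 in BD and 0.230, 0.322 and 0.234 in NBD. In control replicates 1 and 2 the ratio was 0.843 (exact 95% interval 0.795 to 0.894) and 0.794 (0.744 to 0.847), and in control replicate 3 it was 0.255 (0.238 to 0.273). Intervals cover counting error only. The TEAD1 ratio was 0.678, 0.614 and 0.635 in BD, 0.713, 0.590 and 0.514 in NBD, and 1.21, 1.18 and 0.541 in control. Per kb, YAP1 was thus above TEAD1 and WWTR1 in the sorted libraries and in control replicate 3, while TEAD1 was above YAP1 in control replicates 1 and 2. These ratios do not depend on the scaling of libraries.

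**Figure D3:**
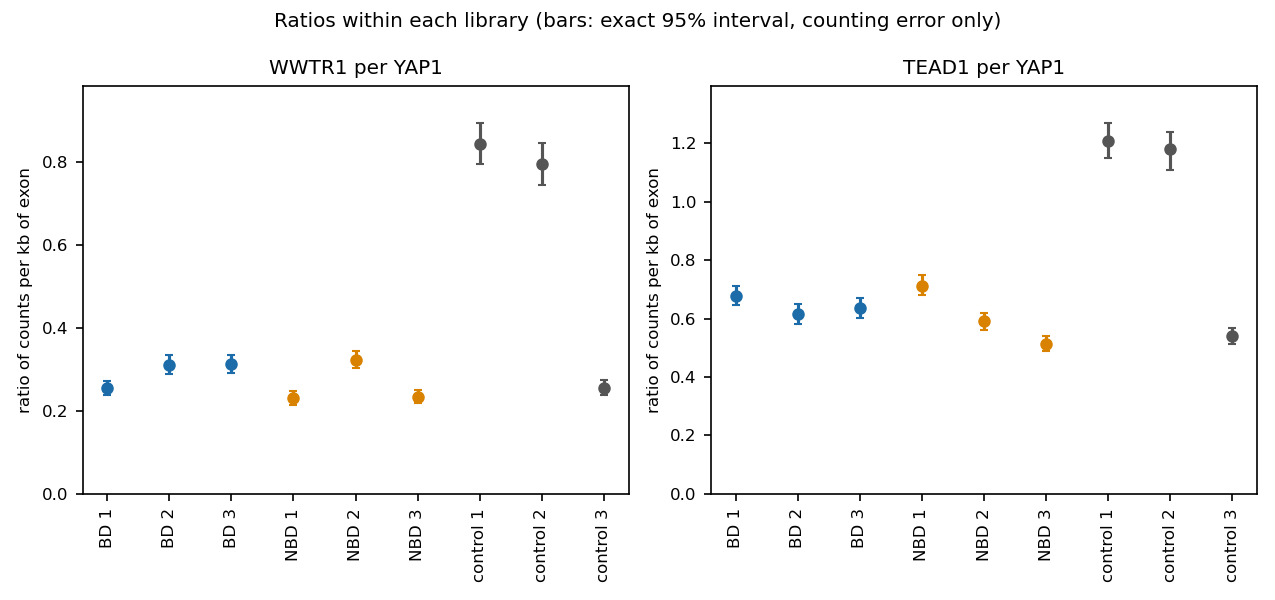
Ratio of counts per kb of exon (y axis, from 0) of WWTR1 to YAP1 and of TEAD1 to YAP1 in each of the 9 libraries (x axis), with exact 95% intervals for counting error as bars. Control replicates 1 and 2 lie at 0.843 and 0.794 for WWTR1 and at 1.21 and 1.18 for TEAD1, above the other 7 libraries.

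The secreted matricellular proteins CCN1 (CYR61) and CCN2 (CTGF) are widely used readouts of YAP activity. CCN1 (chromosome 1, 85580761 to 85583962) stood at 11.8, 13.7 and 19.0 CPM in BD, at 19.2, 41.8 and 16.6 CPM in NBD and at 18.8, 22.1 and 15.1 CPM in control. NBD replicate 2 was the highest library, and the other 8 lay between 11.8 and 22.1 CPM with overlapping groups. The log2 fold change of BD against NBD was -0.80 ± 0.35, with a 95% interval of -1.58 to -0.03 and an unadjusted p of 0.0432, which did not pass adjustment over all genes (0.814). Against control it was -0.33 ± 0.35 for BD (adjusted p = 0.638) and 0.47 ± 0.35 for NBD (0.604).

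CCN2 (chromosome 6, 131948176 to 131951373) was scarce. It held 9, 20 and 7 counts in BD (0.313, 0.785 and 0.241 CPM), 9, 119 and 15 counts in NBD (0.333, 4.92 and 0.590 CPM), and 34, 47 and 17 counts in control (1.74, 2.64 and 0.640 CPM). Here too NBD replicate 2 was the highest library, 20.4 times the lowest, followed by control replicates 2 and 1. CCN2 had a log2 fold change of -2.12 ± 0.98 for BD against NBD (adjusted p = 0.814), -1.89 ± 0.98 for BD against control (0.392) and 0.23 ± 0.92 for NBD against control (0.929). In GENCODE 29 the antisense gene AL133346.1 shares exon bases with CCN2, and the sources used here do not say whether the counting used strand.

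ANKRD1 (chromosome 10, 90912096 to 90921276), a nuclear ankyrin repeat protein and a direct YAP target, had counts in 4 libraries and 0 counts in 5. It held 2, 0 and 0 counts in BD, 0, 57 and 0 in NBD and 81, 64 and 0 in control, or 0.0695 CPM in BD replicate 1, 2.36 in NBD replicate 2, and 4.14 and 3.59 in control replicates 1 and 2. In a library without a count, 3 counts would have been 0.103 to 0.118 CPM, so a level below that cannot be told from absence. The 2 counts of BD replicate 1 also lie below 3 counts, which there would be 0.104 CPM. Pooled, control replicates 1 and 2 were 161-fold above BD (145 against 2 counts, exact 95% interval 43.9 to 1345, counting error only). NBD replicate 2 was 98.2-fold above BD (26.0 to 830). These ratios use the libraries that held the counts and leave out control replicate 3. They rest on 2 counts in BD, so they are descriptions and not a test. None of the comparisons passed with all libraries (adjusted p = 0.814, 0.337 and 0.671). With 0 counts in 5 libraries, the fitted fold changes of ANKRD1 are not read as a size, here or below.

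CCN1, CCN2 and ANKRD1 thus shared the high value of NBD replicate 2. It was the highest of the 6 sorted libraries for 7 of the 10 genes, YAP1, WWTR1, TEAD1, CCN1, CCN2, ANKRD1 and LATS2, against 16.3% of all genes tested. Without it, the log2 fold change of BD against NBD was -0.27 ± 0.28 for CCN1 and -0.05 ± 0.75 for CCN2, and ANKRD1 was left with 2 counts in BD and 0 in NBD; adjusted p was 1.00 for each, with 0% of all genes called. ADD2 was also found in NBD replicate 2 alone among the sorted libraries, at 1.61 CPM. In control replicates 1 and 2, where ADD2 stood at 61.2 and 59.0 CPM, CCN1 (18.8 and 22.1 CPM) and CCN2 (1.74 and 2.64 CPM) were below their level in NBD replicate 2, and ANKRD1 (4.14 and 3.59 CPM) was above it. The 10 genes were chosen with earlier results of these data known, so 7 of 10 against 16.3% is a description and was not tested.

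Other genes shared these profiles. By Pearson correlation of log2 CPM over the 9 libraries, among all other protein-coding genes tested, those most like ANKRD1 were SLCO2A1, FAT3 and SPARC (r = 0.993, 0.992 and 0.992). SPARC, a secreted matrix glycoprotein, reached 29.3 CPM in control replicate 1, 29.4 CPM in control replicate 2 and 14.3 CPM in NBD replicate 2, against 0.471 to 1.49 CPM elsewhere. Those most like CCN2 were RIMS2, AP1S3 and FST (0.978, 0.959 and 0.922). FST, the activin antagonist follistatin, had its highest level in NBD replicate 2 (52.3 CPM), then control replicates 2 and 1 (27.8 and 26.0 CPM), against 4.55 to 8.13 CPM elsewhere. CCN1 was most like GSDMC, FRMD4B and KALRN (0.948, 0.939 and 0.905), and YAP1 was most like CCAR1 and CHORDC1 (0.931 and 0.916). With 9 libraries and 16921 genes, high values of r are descriptions and were not tested.

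AXL (chromosome 19, 41219203 to 41261766), a receptor tyrosine kinase and YAP target, stood at 63.5, 36.2 and 21.8 CPM in BD, at 37.1, 48.7 and 11.7 CPM in NBD and at 79.9, 90.7 and 14.0 CPM in control. Control replicates 1 and 2 were again the highest, but the third replicate was the lowest of its group in all 3 groups, and all groups overlapped. For AXL the log2 fold change was 0.32 ± 0.67 for BD against NBD (adjusted p = 0.964), -0.60 ± 0.67 for BD against control (0.657) and -0.92 ± 0.67 for NBD against control (0.599).

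LATS2 and AMOTL2 are both YAP targets and restrain YAP, LATS2 as the kinase that phosphorylates it and AMOTL2 as an angiomotin that holds it at junctions. LATS2 (chromosome 13, 20973032 to 21061547) stood at 8.16, 9.03 and 9.10 CPM in BD, at 11.5, 13.9 and 7.32 CPM in NBD and at 16.2, 16.5 and 9.64 CPM in control. It was the only listed gene with groups that did not overlap, BD lying below all 3 controls, which 15.8% of all genes did in either direction. For BD against NBD and NBD against control none of the 10 was without overlap, against 14.6% and 8.42% of all genes. The log2 fold change of LATS2 was -0.69 ± 0.29 for BD against control (adjusted p = 0.352), -0.32 ± 0.29 for BD against NBD (0.888) and -0.37 ± 0.29 for NBD against control (0.619). The ratio of LATS2 to LATS1 counts per kb ran from 0.220 to 0.425 over the 9 libraries with all groups overlapping.

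AMOTL2 (chromosome 3, 134355874 to 134375479) stood at 79.7, 98.9 and 64.5 CPM in BD, at 76.7, 85.8 and 38.4 CPM in NBD and at 115, 139 and 65.3 CPM in control. Its order resembled that of AXL, with replicate 3 lowest in each group. The log2 fold change was 0.27 ± 0.34 for BD against NBD (adjusted p = 0.923), -0.40 ± 0.34 for BD against control (0.568) and -0.67 ± 0.34 for NBD against control (0.545).

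AJUBA (chromosome 14, 22971174 to 22982642), a LIM-domain protein of cell junctions that binds and inhibits LATS kinases, stood at 138, 107 and 88.7 CPM in BD, at 120, 124 and 80.8 CPM in NBD and at 77.3, 92.6 and 92.5 CPM in control. Unlike WWTR1 and TEAD1 it was not high in control replicates 1 and 2, the first of which was the lowest library, and the highest was 1.79 times the lowest. For AJUBA the log2 fold change was 0.04 ± 0.22 for BD against NBD (95% interval -0.45 to 0.53, adjusted p = 0.987), 0.35 ± 0.22 for BD against control (0.468) and 0.31 ± 0.22 for NBD against control (0.597).

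Per kb of exon, mean levels in BD (± SD, n = 3) ran from AJUBA at 18.6 ± 4.18 CPM per kb and YAP1 at 16.9 ± 1.87, through AMOTL2 at 13.5 ± 2.88, TEAD1 at 10.9 ± 1.76, AXL at 7.86 ± 4.11, CCN1 at 6.03 ± 1.51, WWTR1 at 4.91 ± 0.0571 and LATS2 at 1.57 ± 0.0935, to CCN2 at 0.191 ± 0.126 and ANKRD1 at 0.0117 ± 0.0203. AJUBA and YAP1 differed by less than the larger of their SDs, and so did each pair of neighbours from AMOTL2 down to WWTR1. In NBD the order was YAP1 at 20.2 ± 2.18, AJUBA at 18.1 ± 4.0, TEAD1 at 12.2 ± 1.59, AMOTL2 at 11.2 ± 4.2, CCN1 at 10.5 ± 5.66, AXL at 6.31 ± 3.67, WWTR1 at 5.37 ± 1.64, LATS2 at 1.96 ± 0.598, CCN2 at 0.833 ± 1.1 and ANKRD1 at 0.397 ± 0.688. Neighbours beyond the larger SD there were AJUBA and TEAD1, WWTR1 and LATS2, and, narrowly, LATS2 and CCN2. In control the order was AMOTL2 at 17.8 ± 6.3, YAP1 at 17.4 ± 1.24, TEAD1 at 16.7 ± 5.85, AJUBA at 14.6 ± 1.47, AXL at 11.9 ± 8.05, WWTR1 at 10.8 ± 5.29, CCN1 at 7.61 ± 1.43, LATS2 at 2.54 ± 0.699, ANKRD1 at 1.3 ± 1.14 and CCN2 at 0.714 ± 0.427. No neighbours from AMOTL2 to CCN1 differed by more than the larger SD, whereas CCN1 and LATS2, and LATS2 and ANKRD1, did. This mean order was not that of any single control. The highest were TEAD1 (21.1 CPM per kb), AMOTL2 (19.3) and YAP1 (17.4) in replicate 1, AMOTL2 (23.3), TEAD1 (19.0) and AXL (17.6) in replicate 2, and YAP1 (18.6), AJUBA (15.5) and AMOTL2 (10.9) in replicate 3.

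Read library by library, the 10 genes divided the controls. Control replicates 1 and 2 were both above the other 7 libraries for 6 of the 10, WWTR1, TEAD1, ANKRD1, AMOTL2, LATS2 and AXL, against 18.9% of all genes tested. Control replicate 3 lay inside the range of the 6 sorted libraries for 10 of 10, against 87.3% of all genes. The comparisons with control were also made without control replicate 3 and with it as the only control. Calls made without control replicate 3, here and in the lists below, rest on a split already seen in the same libraries. They describe that split and are not an independent test of it. The 10 genes and the lists were chosen with earlier results of these data known, so their shares against all genes are descriptions too.

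Without control replicate 3, 4 of the 10 genes were lower in BD than in control and 0 higher. WWTR1 fell by 1.48 ± 0.22 on the log2 scale (adjusted p = 0.00133), TEAD1 fell by 0.87 ± 0.19 (0.00884) and LATS2 fell by 0.89 ± 0.25 (0.0268). ANKRD1 was lower too (adjusted p = 0.0158). In this comparison 10.5% of all genes were called lower and 13.8% higher, and the median log2 fold change was -0.88 for the 10 genes and 0.04 for all genes. CCN2, at -2.28 ± 0.96 (adjusted p = 0.108), AXL, at -1.07 ± 0.50 (0.145), and AMOTL2, at -0.64 ± 0.30 (0.143), did not pass. YAP1 was at 0.02 ± 0.18, CCN1 at -0.45 ± 0.36 and AJUBA at 0.40 ± 0.24.

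For NBD against control, likewise without control replicate 3, WWTR1 fell by 1.34 ± 0.22 (adjusted p = 0.0028) and TEAD1 fell by 0.70 ± 0.19 (0.0291), 2 of the 10 genes, with 0 higher. The background was 6.56% of all genes lower and 11.6% higher, and the median was -0.64 for the 10 genes and 0.08 for all. AMOTL2, at -0.91 ± 0.30 (0.0571), and AXL, at -1.38 ± 0.50 (0.0797), missed the threshold. YAP1 was at 0.29 ± 0.18, AJUBA at 0.37 ± 0.24, CCN1 at 0.35 ± 0.36 and CCN2 at -0.16 ± 0.91. The comparisons with control share their control libraries.

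When NBD replicate 2 was also left out, 5 genes were lower in BD and 6 in NBD, where 10.3% and 7.33% of all genes were called lower. In BD, CCN2 was added to the 4 genes above, with a log2 fold change of -2.28 ± 0.57 (adjusted p = 0.0184). In NBD, WWTR1 was at -1.63 ± 0.19 (0.000719), AXL at -1.80 ± 0.55 (0.0476), AMOTL2 at -1.14 ± 0.33 (0.0385) and CCN2 at -2.23 ± 0.65 (0.0414), with TEAD1 and ANKRD1 also called (0.0409 and 0.0012). This setting was chosen after the values of the libraries had been seen.

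With control replicate 3 as the only control, 0 of the 10 genes were called in either comparison, adjusted p was 1.00 for each, and 0% of all genes were called. WWTR1 was at 0.04 ± 0.31 in BD and 0.16 ± 0.31 in NBD, and TEAD1 at 0.11 ± 0.27 and 0.26 ± 0.27. AXL was positive, at 1.52 ± 0.74 and 1.18 ± 0.73, opposite in sign to its value against control replicates 1 and 2. A lone control has no spread of its own, and the fit takes it from BD and NBD.

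**Figure D4:**
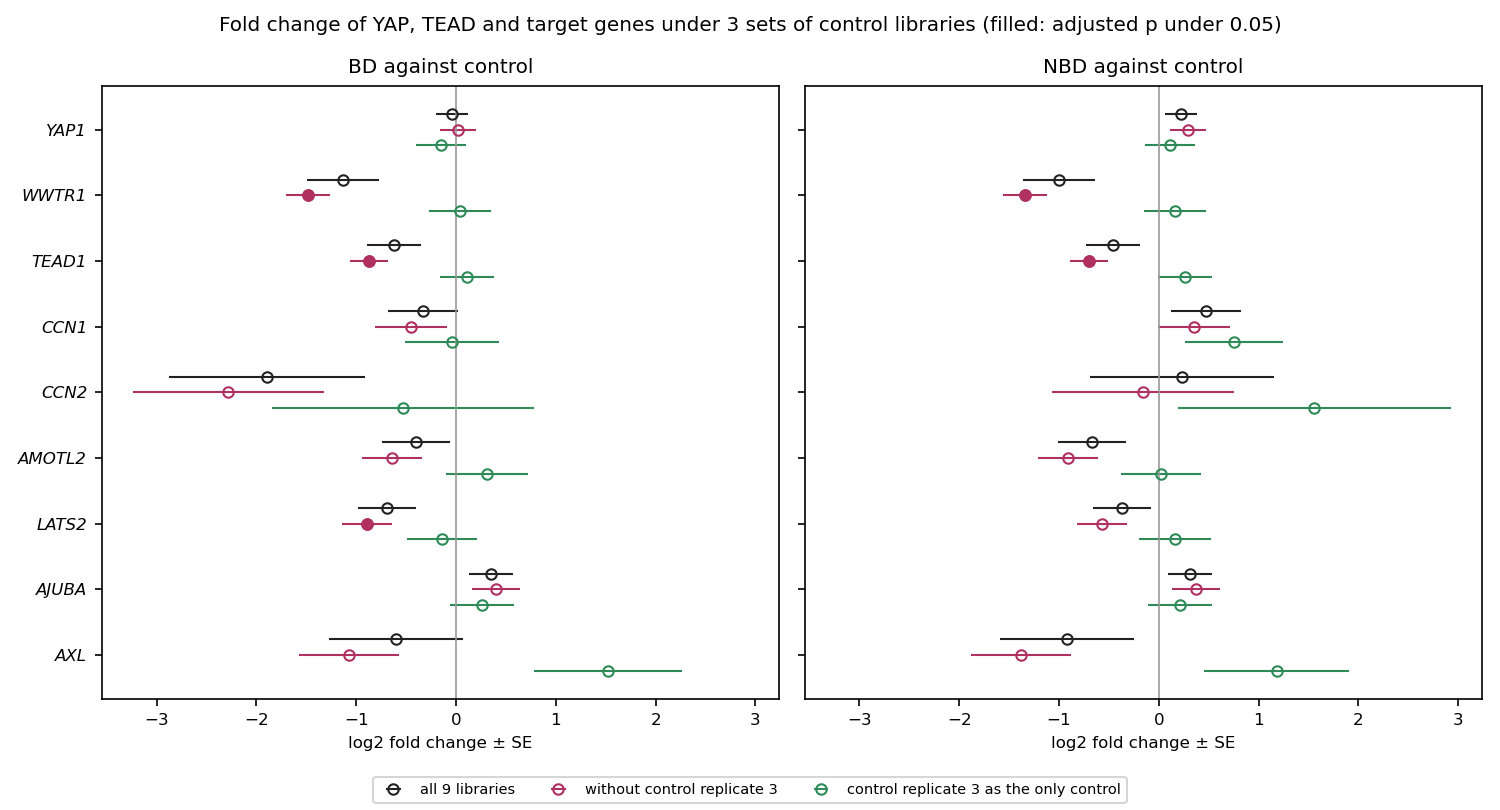
Log2 fold change ± SE (x axis) of 9 listed genes (y axis) for BD and NBD against control, with all 9 libraries, without control replicate 3 and with it as the only control; filled points have an adjusted p under 0.05. WWTR1 and TEAD1 are filled on the lower side without control replicate 3 and lie near 0 with it as the only control; ANKRD1, with 0 counts in 5 libraries, is left out.

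Wider lists of the pathway were described in the same way. With all 9 libraries edgeR called 0 genes of all 4 lists in the 3 comparisons; the only call by DESeq2 was 1 target lower in BD than in control. The values that follow, to the end, were taken without control replicate 3, where 10.5% of all genes were lower and 13.8% higher in BD (median 0.04), and 6.56% lower and 11.6% higher in NBD (median 0.08). Of 15 Hippo core kinases and adaptors, 6 were lower, 1 higher and 8 not called in BD against control (median -0.70), and 3, 1 and 11 in NBD against control (median -0.44). With control replicate 3 as the only control the medians were -0.07 and 0.02 and 0 genes were called.

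Among them, SAV1, the adaptor of the MST kinases, fell by 0.71 ± 0.17 in BD (adjusted p = 0.0116) and by 0.82 ± 0.17 in NBD (0.00753). STK3, an MST kinase, fell by 0.77 ± 0.19 in BD (0.016) and was at -0.48 ± 0.19 in NBD (0.113). FRMD6, an upstream activator at the membrane, fell by 0.91 ± 0.20 and 0.73 ± 0.20 (0.00959 and 0.0321). WWC2, a KIBRA-family scaffold, fell by 0.77 ± 0.18 in BD (0.0124) and was at -0.57 ± 0.18 in NBD (0.054), while NF2, the tumour suppressor merlin, was at -0.73 ± 0.27 in BD (0.0686) and fell by 0.92 ± 0.27 in NBD (0.0363). The kinase gene TAOK3 went the other way and rose by 0.84 ± 0.17 and 0.99 ± 0.17 (0.00613 and 0.00355).

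Of 17 junction and cytoskeletal regulators, 1 was lower and 2 higher in BD (median -0.18), and 0 lower and 1 higher in NBD (median -0.08). Of 17 genes these calls are no more than the shares over all genes, 10.5% lower and 13.8% higher in BD and 6.56% and 11.6% in NBD. AMOT, the founding angiomotin, stood at 57.9, 32.2 and 44.7 CPM in BD, at 57.8, 25.5 and 40.1 CPM in NBD and at 8.58, 7.01 and 41.1 CPM in control. It was low in control replicates 1 and 2 alone, the reverse of its relative AMOTL2, and rose by 2.54 ± 0.37 in BD and 2.42 ± 0.37 in NBD (adjusted p = 0.00113 and 0.0018). FAT1, a giant protocadherin, fell by 1.12 ± 0.32 in BD (0.0288) and was at -0.69 ± 0.33 in NBD (0.164). CRB3, an apical polarity protein, rose by 1.01 ± 0.29 in BD (0.0261) and was at 0.57 ± 0.28 in NBD (0.186).

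Of the 9 coactivators, TEADs and VGLL cofactors 8 were tested, VGLL1 having no count. In BD 3 were lower, 0 higher and 5 not called (median -0.32), and in NBD 4 were lower and 4 not called (median -0.45), where 10.5% and 6.56% of all genes were lower. Besides WWTR1 and TEAD1 these were TEAD2, which fell by 1.22 ± 0.31 in BD and 1.31 ± 0.32 in NBD (adjusted p = 0.0174 and 0.0173), and TEAD4, which fell by 0.83 ± 0.19 in NBD (0.0147) and was at -0.41 ± 0.19 in BD (0.148).

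Of a list of 22 genes known as YAP targets, which includes 6 of the 10 genes above, 11 were lower, 1 higher and 10 not called in BD (median -0.89), and 8, 2 and 12 in NBD (median -0.72). Over all genes 10.5% were lower and 13.8% higher in BD, and 6.56% and 11.6% in NBD. With control replicate 3 as the only control the medians were 0.03 and 0.18. MYOF, a membrane repair protein, stood at 261, 280 and 266 CPM in BD, at 397, 570 and 268 CPM in NBD and at 933, 923 and 284 CPM in control. F3, tissue factor, stood at 149, 186 and 136 CPM in BD, at 169, 313 and 128 CPM in NBD and at 504, 516 and 141 CPM in control. Both had NBD replicate 2 as the highest sorted library, and control replicate 3 lay inside the sorted range. MYOF fell by 1.78 ± 0.27 in BD and 1.16 ± 0.26 in NBD (adjusted p = 0.0013 and 0.0136), and F3 fell by 1.69 ± 0.31 and 1.31 ± 0.31 (0.00385 and 0.0165).

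ASAP1, an Arf GTPase activator, fell by 1.67 ± 0.32 and 1.28 ± 0.32 (0.00445 and 0.0197). The transcription factor gene FOXF2 fell by 1.71 ± 0.41 and 1.47 ± 0.41 (0.0126 and 0.0302), and the growth factor gene TGFB2 by 2.53 ± 0.57 and 2.09 ± 0.56 (0.00959 and 0.0276). IGFBP3, a secreted binder of insulin-like growth factors, was the target called higher in both. RBMS3, outside the naming rule and chosen after its values were seen, was the other call in NBD (0.98 ± 0.28, adjusted p = 0.0356), at 0.79 ± 0.28 in BD (0.0613). IGFBP3 stood at 1680, 2486 and 2402 CPM in BD, at 1670, 1567 and 2397 CPM in NBD and at 46.6, 48.0 and 2436 CPM in control, the third control lying with the sorted libraries. Its log2 fold change was 5.54 ± 0.34 in BD and 5.33 ± 0.34 in NBD (adjusted p = 9.97e-06 and 1.34e-05).

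**Figure D5:**
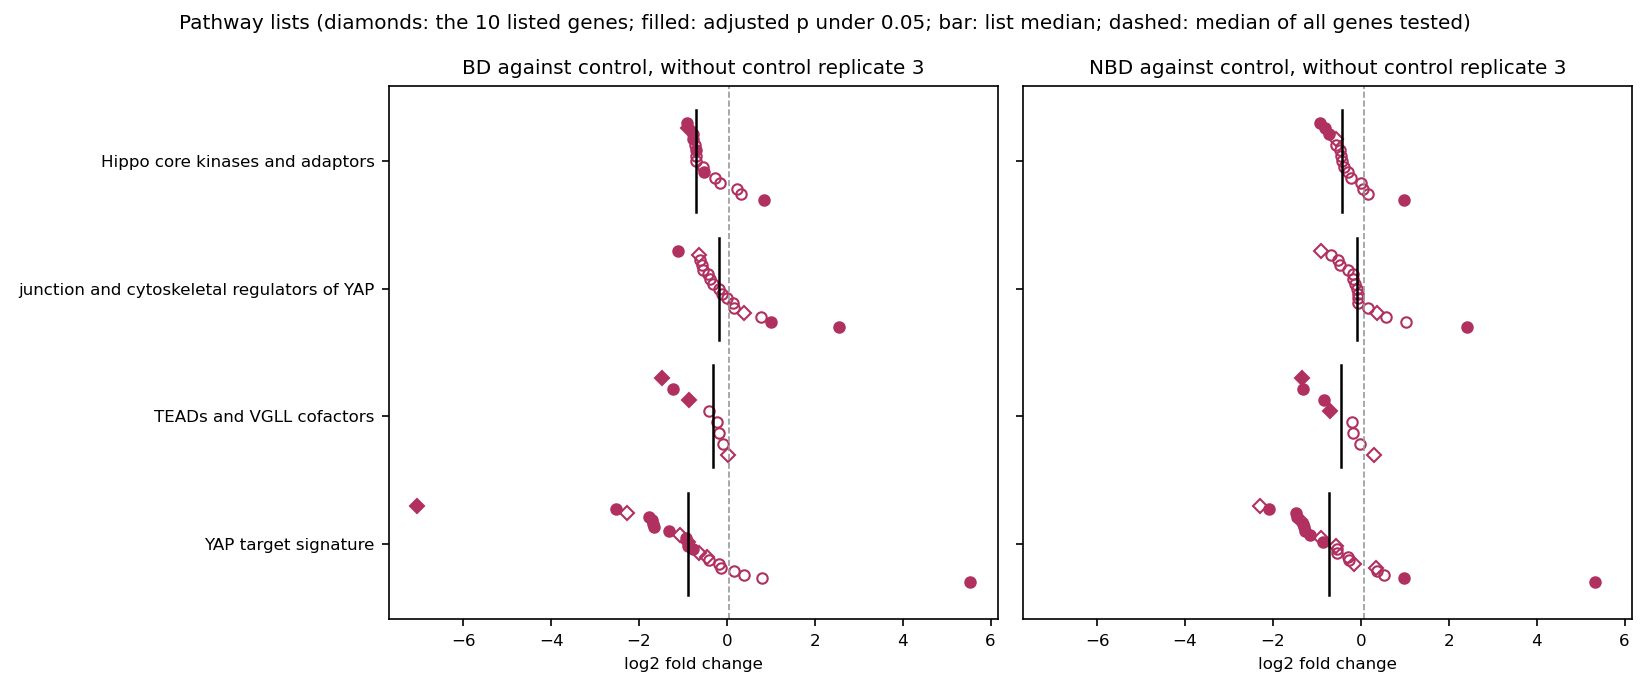
Log2 fold change (x axis) of each tested gene of the 4 pathway lists (y axis) for BD and NBD against control without control replicate 3. Diamonds are the 10 listed genes, filled symbols have an adjusted p under 0.05, bars are list medians and the dashed line is the median of all genes; in BD the list medians are -0.70, -0.18, -0.32 and -0.89 from top to bottom, and IGFBP3 is the point at 5.54.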

How the data were processed

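Total RNA of HaCaT cells was sequenced in 9 libraries, 3 each labelled BD, NBD and control, after stranded, rRNA-depleted, paired-end library preparation, per the labels' protocols. The authors deposited raw read counts per gene, with no normalization. Per the submitters' processing notes, the tools were FastQC 0.74, Trimmomatic 0.39, STAR 2.7.11b and featureCounts, with GRCh38. Neither the strand setting nor the annotation release is stated in the sources used here, so genes with an antisense or overlapping partner have uncertain counts. Of 78899 gene IDs, 39344 had a count, 61512 a symbol and 57338 coordinates in GENCODE 29, which also gave exon lengths. No row lacked a gene ID.

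Genes were filtered with filterByExpr, leaving 16921, scaled by TMM and tested with edgeR 4.0.16 (quasi-likelihood, a term per group, all 9 libraries, two-sided) in R 4.3.3, and calls were made at a Benjamini-Hochberg adjusted p under 0.05 over all of them. A filter was applied anew where a library was left out. Alternatives were other size factors, no filter, DESeq2 1.42.0, a replicate block, limma-voom (limma 3.58.1), a filter of at least 1 CPM in 3 libraries, protein-coding genes alone, the 6 libraries compared, removal of both mitochondrial rRNA genes, control replicate 3 as the only control, leaving out each library, and control replicate 3 and NBD replicate 2 left out together, which was added after seeing the data. The test was tested on simulated counts with changes of 1.5-fold, 2-fold and 4-fold, placed only in genes above a minimum average level. Replicate libraries differed by more than sampling noise. Python 3.11.15 with matplotlib 3.10.9 drew the plots.

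The members and lists were chosen with earlier results of these data known. Named besides the 10 genes were up to 6 called genes per pathway list, by the size of the change, and the 3 protein-coding genes most correlated with CCN1, CCN2, ANKRD1 and YAP1. One gene that this rule names is not reported here. Total counts of 17128797 to 29512856 set a level of 3 counts at 0.103 to 0.168 CPM.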

Additional observations from a re-analysis of the deposited data

How the results depend on the processing

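Over 21 alternatives, 628 fold changes of the 10 genes were computed, of which 577 kept their sign and their side of the threshold. With their sign kept, 22 became called, and 29 changed sign. Among the changed signs, CCN2 in NBD against control was also called by edgeR with control replicate 3 and NBD replicate 2 both left out (-2.23, adjusted p = 0.0414). The cause was not tested where a value moved. Fits that leave out libraries have fewer samples, and the part of that was not tested either.

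The number of listed genes called, 0 in all 3 comparisons by edgeR, became 1 for BD against NBD and 3 and 2 for BD and NBD against control with no filter, and 5 and 6 against control with control replicate 3 and NBD replicate 2 both left out. Leaving out 1 library gave 0 for BD against NBD, and 0 to 4 and 0 to 2 against control. Over all genes, BD against NBD gave 3 calls, against 8 with upper-quartile factors, 131 with no filter, 57 by DESeq2, 5 by limma-voom, 5 with 6 libraries, 9 with control replicate 3 as the only control, 6 with both libraries left out and 0 to 16 without 1 library. BD against control gave 0 calls, against 1162 with no filter, 167 by DESeq2, 1 by limma-voom, 4125 with both left out and 0 to 4317 without 1 library, the last without control replicate 3. NBD against control gave 0 calls, against 594 with no filter, 29 by DESeq2, 3174 with both left out and 0 to 3228 without 1 library, again without control replicate 3.

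Signs changed as follows (log2 fold changes, of which those of ANKRD1 are not read as a size). For BD against NBD, WWTR1 was 0.15 and ANKRD1 2.52 with both left out, and over the libraries left out in turn WWTR1 ran from -0.28 to 0.15, ANKRD1 from -7.25 to 2.53, AJUBA from -0.15 to 0.18 and AXL from -0.17 to 0.74. For BD against control, YAP1 was 0.02 with both left out and ran from -0.13 to 0.02, and with control replicate 3 as the only control WWTR1 was 0.04, TEAD1 0.11, ANKRD1 2.6, AMOTL2 0.31 and AXL 1.52. For NBD against control, that setting gave WWTR1 0.16, TEAD1 0.26, ANKRD1 7.36, AMOTL2 0.02, LATS2 0.16 and AXL 1.18. CCN1 was -0.19 with both left out and ran from -0.06 to 0.71 without 1 library, and CCN2 was -0.47 by limma-voom, -2.23 with both left out and ran from -1.83 to 0.74.

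With the replicate number as a block, 0 genes were called in each comparison and none of the 10, and CCN2 in NBD against control was -0.33. Deviations from group means correlated between same-numbered libraries at 0.0684 to 0.612 for BD and NBD. They correlated at 0.0399 to 0.261 for BD and control and at 0.036 to 0.441 for NBD and control. The value of 0.441 was that of NBD replicate 2 with control replicate 2. With control replicates 1 and 3, NBD replicate 2 correlated at 0.408 and -0.495. Between differently numbered libraries the values ran from -0.566 (BD replicate 1, NBD replicate 3) to 0.421 (BD replicate 2, NBD replicate 3). The labels name no pairing, so the main fit had no term for the replicate number. Whether the numbers mark pairs was not tested. In the fits of 6 libraries ANKRD1 was not tested for BD against NBD and BD against control. CCN2 and ANKRD1 rest on at most 119 and 81 counts in a library, which limits their precision. In simulated data, where only more abundant genes were given changes, 2-fold changes were mostly missed.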
